A study of Chlorocebus aethiops with 12 samples.

Results

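The chemokine receptor CX3CR1 and its ligand CX3CL1, also called fractalkine, were followed on 12 one-colour arrays of transfected COS-1 cells. The genes were found by their annotated accessions, NM_001337 for CX3CR1 and NM_002996 for CX3CL1, 2 of the 32379 accessions on the array. They were read by 4 of the 41000 non-control probes, 1 for CX3CR1 and 3 for CX3CL1. CX3CR1 was chosen by its values on these same arrays, for being lower with MDFIC and with Dex, so its falls are given below as a description with no test. CX3CL1 was taken with it for its role as the ligand.

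COS-1 is a fibroblast-like cell line from the kidney of the African green monkey. GR+MDFIC cells had received both the glucocorticoid receptor (GR) and MDFIC, a regulator with a MyoD family inhibitor domain, and were given either 100 nM dexamethasone (Dex) or vehicle for 6 h. GR cells had received the receptor without MDFIC and were given the same Dex or vehicle. Each of the 4 groups held 3 biological replicates, and treatment began 48 h after transfection. All 12 samples thus carried transfected GR, and no group shows cells without it. The question put to CX3CR1 was whether the fall with MDFIC and the fall with Dex added up in cells that had both.

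CX3CR1 is a G-protein-coupled receptor known from monocytes, microglia, natural killer cells and some T cells, where it mediates adhesion, migration and survival. CX3CL1 is made as a membrane-anchored protein with its chemokine domain on a mucin-like stalk, and metalloproteinases release a soluble form. In the kidney, tubular epithelium and endothelium are known sources of CX3CL1, and infiltrating mononuclear phagocytes are known to carry CX3CR1. GR is a transcription factor that Dex activates, and glucocorticoids are known to lower many chemokine transcripts.

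The array carries 45015 spots with probes designed for human transcripts, so the accessions name human sequences while the RNA came from monkey cells. How well each probe matches the monkey transcript was not tested. The 12 arrays lay on 3 slides. Slide 1 held the 3 GR vehicle arrays and GR Dex replicate 1. Slide 2 held GR Dex replicates 2 and 3 with GR+MDFIC vehicle replicates 1 and 2. Slide 3 held GR+MDFIC vehicle replicate 3 and all 3 GR+MDFIC Dex arrays, was read on another scanner, and had a mean 75th percentile signal of 386, against 868 on slide 2 and 850 on slide 1. An array had between 70.3% and 75.2% of its non-control spots well above background, and the number of arrays limits the precision. The files give accessions with no gene names, so the transfected genes and markers of COS-1 cells or of blood cells were not looked up.

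All 4 member probes were well above background on all 12 arrays, and none of their spots was saturated or an outlier. The CX3CR1 probe (A_23_P407565) gave processed signals between 11.7 and 308, and the scanner software put the error of a single spot at 10.03% to 14.97% of its signal. The brightest CX3CL1 probe (A_23_P37727) gave 464 to 1647. The other 2 CX3CL1 probes were dimmer, at 34.6 to 128 for A_24_P390495, called the first dim probe here, and at 16.8 to 110 for A_24_P381901, the second dim probe. Levels below are the log2 of the processed signal relative to the 75th percentile of its own array, so 0 is the level of that percentile.

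CX3CR1 fell into 4 separate levels, one for each group, with the lowest in cells that had both MDFIC and Dex. It read -4.97, -4.59 and -4.70 on the GR+MDFIC Dex arrays and -3.72, -4.20 and -3.94 on the GR+MDFIC vehicle arrays. It read -2.84, -2.79 and -2.78 on the GR Dex arrays and -1.62, -1.57 and -1.62 on the GR vehicle arrays. No array of any group overlapped with an array of another group, and the smallest gap lay between GR+MDFIC Dex and GR+MDFIC vehicle. As a share of the 75th percentile signal, the mean level was 3.73% ± 0.48 in GR+MDFIC Dex, 6.51% ± 1.09 in GR+MDFIC vehicle, 14.3% ± 0.32 in GR Dex and 32.9% ± 0.66 in GR vehicle (SD, n = 3 each). In such bulk RNA, fewer cells with the transcript and less of it per cell cannot be told apart.

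**Figure D1:**
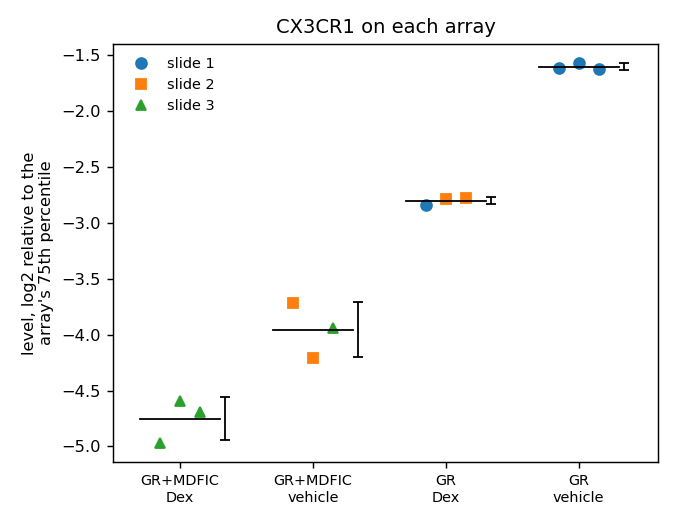
CX3CR1 level on each array (vertical axis, log2 relative to the 75th percentile of the array) in the 4 groups (horizontal axis). Points are arrays, with shape and colour for the slide, horizontal lines are means and bars are the SD (n = 3). The groups do not overlap, with means of -4.75, -3.96, -2.80 and -1.61 from left to right.

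The spread among replicates was wider in GR+MDFIC cells than in GR cells. The SD of the log2 level was 0.19 in GR+MDFIC Dex and 0.24 in GR+MDFIC vehicle, against 0.03 in each of GR Dex and GR vehicle. The dimmest array, GR+MDFIC Dex replicate 1, had a processed signal of 11.7 beside a local background of 23, and the brightest, GR vehicle replicate 2, had 308 beside 30.5.

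With MDFIC, CX3CR1 was lower in Dex and in vehicle. In Dex, cells with MDFIC had a 3.86-fold lower level than cells without it, a log2 difference of -1.95 ± 0.12 (SE, limma). In vehicle it was 5.10-fold lower, at -2.35 ± 0.12. All 3 arrays lay lower in both comparisons, as they did for 16.2% of the 23757 tested accessions with MDFIC in Dex and for 10% in vehicle. In limma, 2.9% of accessions passed as lower with MDFIC in Dex and 0.299% in vehicle. These contrasts chose the gene, so the counts carry no support for it. In vehicle, 7 accessions had a larger fall with MDFIC than CX3CR1, and in Dex 224 had one.

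With Dex, CX3CR1 was lower in cells with and without MDFIC. In GR+MDFIC cells it was 1.74-fold lower with Dex than with vehicle, a log2 difference of -0.80 ± 0.12 (SE, limma). In GR cells it was 2.29-fold lower, at -1.20 ± 0.12. All 3 Dex arrays lay below all 3 vehicle arrays each time, as for 16.2% of tested accessions in GR+MDFIC cells and 11.8% in GR cells. In limma, 6.94% of accessions passed as lower with Dex in GR+MDFIC cells and 2.77% in GR cells. A larger fall with Dex was found for 1035 accessions in GR+MDFIC cells and for 58 in GR cells.

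On all 3 arrays the level with both lay above what the single falls would give if each removed a fixed share of the transcript. Set to 100% in GR vehicle, the geometric mean level was 19.6% in GR+MDFIC vehicle and 43.6% in GR Dex. Their product is 8.56%, and the level in GR+MDFIC Dex was 11.3%. On the log2 scale, where shares add, the predicted level was -5.15 and the observed mean was -4.75. The 3 GR+MDFIC Dex arrays lay 0.19, 0.56 and 0.46 above the prediction. All 3 are set against the same prediction, made from the means of the other groups, so they share its error. They also gave the lowest processed signals of this probe, 11.7 to 16.0 beside local backgrounds of 23 to 25.5, all on slide 3. Whether the log2 fall is narrowed at such dim signals was not tested.

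The difference between the Dex effects in GR+MDFIC and GR cells, the interaction, was 0.40 ± 0.17 (SE) on the log2 scale in limma. This SE pools the spread over all groups, although the spread was wider in GR+MDFIC cells. Taken from the group SDs, the SE was 0.18. The 95% interval of the interaction was 0.01 to 0.79, with an unadjusted p of 0.0447 in limma. The same limma fit gave an unadjusted interaction p under 0.05 for 2340 of the 23757 tested accessions. Over all 23757 tested accessions the limma interaction had a Benjamini-Hochberg adjusted p of 0.503 and did not pass, where 0.0589% of accessions passed. With normexp background correction and quantile scaling it was 0.45 and passed (limma, Benjamini-Hochberg adjusted p = 0.0445). The falls that enter it were then smaller, at -0.30 and -0.75 with Dex in GR+MDFIC and GR cells. That correction adds an offset of 50, which narrows log2 differences most between dim signals. The processed CX3CR1 signals in GR+MDFIC Dex were 11.7 to 16.0. What the offset contributes to the interaction was not tested. A p above the threshold does not show that the falls add exactly, and the upper bound of 0.79 stands beside a Dex difference of -1.20 in GR cells. The value is also not independent of the choice of the gene, since the GR vehicle arrays enter both falls and, with a plus sign, the interaction. In limma, 20 accessions passed as lower both with Dex in GR cells and with MDFIC in vehicle. Of these 20, 19 had an interaction above 0, with a median of 0.16, and 16 had a lower one than CX3CR1. Among all tested accessions, 2273 had a higher interaction than CX3CR1.

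**Figure D2:**
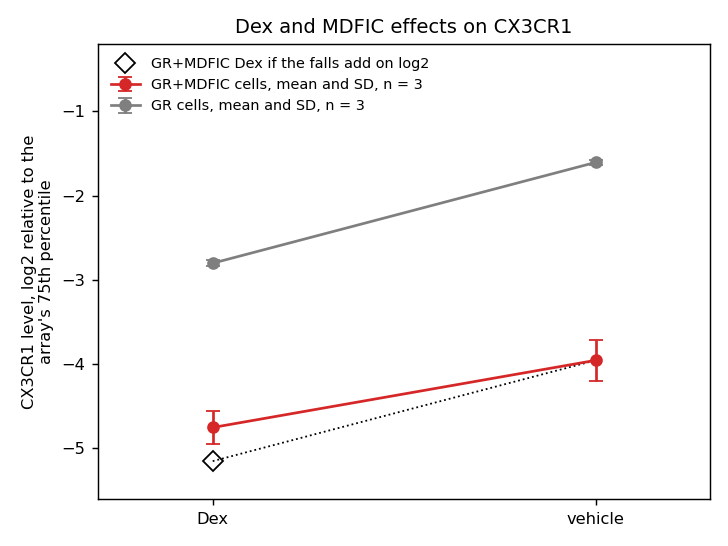
CX3CR1 level (vertical axis, log2 relative to the 75th percentile of the array) with Dex and with vehicle (horizontal axis) in GR+MDFIC cells (red) and GR cells (grey), as means with SD bars (n = 3). The open diamond is the level in GR+MDFIC Dex if the log2 falls add, -5.15, and the observed mean of -4.75 lies above it.

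On a linear scale the falls could not add. Relative to a mean GR vehicle level of 100%, the sum of the falls would leave -36.6% in GR+MDFIC Dex, which is below 0, and the observed mean was 11.4%. The deviation from the linear sum was 47.9 ± 2.5 percentage points of the GR vehicle level (SE from the group SDs, n = 3 each). This is a description, with no test.

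CX3CR1 kept its order within each slide. On slide 3 the GR+MDFIC Dex arrays differed from the GR+MDFIC vehicle array by -0.81 on average, with the 3 differences between -1.02 and -0.65. On slide 1 the GR Dex array differed from the mean of the GR vehicle arrays by -1.23. The interaction from these within-slide differences was 0.43, and 0.21 to 0.58 over the 3 GR+MDFIC Dex arrays taken singly. It rests on 1 Dex array of GR cells and 1 vehicle array of GR+MDFIC cells. With slide as a fixed block in limma the interval of the interaction was -0.20 to 1.06, and with slide as a random block it was -0.02 to 0.83.

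Slide 2 held MDFIC without Dex beside Dex without MDFIC. There the GR+MDFIC vehicle arrays differed from the GR Dex arrays by -1.18, with the 4 pairs of arrays between -1.43 and -0.93. The groups that were split over slides showed small mean shifts for CX3CR1. GR+MDFIC vehicle was 0.016 higher on slide 3 than on slide 2, and GR Dex was 0.056 higher on slide 2 than on slide 1. Each shift sets 1 array against the mean of 2. In GR+MDFIC vehicle the 2 arrays of slide 2 read -3.72 and -4.20 and that of slide 3 read -3.94. The small shift in that group is therefore imprecise. Over all tested accessions the middle 90% of such shifts ran from -0.81 to 1.15 for GR+MDFIC vehicle and from -0.53 to 0.29 for GR Dex. No slide held both GR+MDFIC and GR cells with the same treatment, so an MDFIC effect and slide differences are linked only through these shifts.

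**Figure D3:**
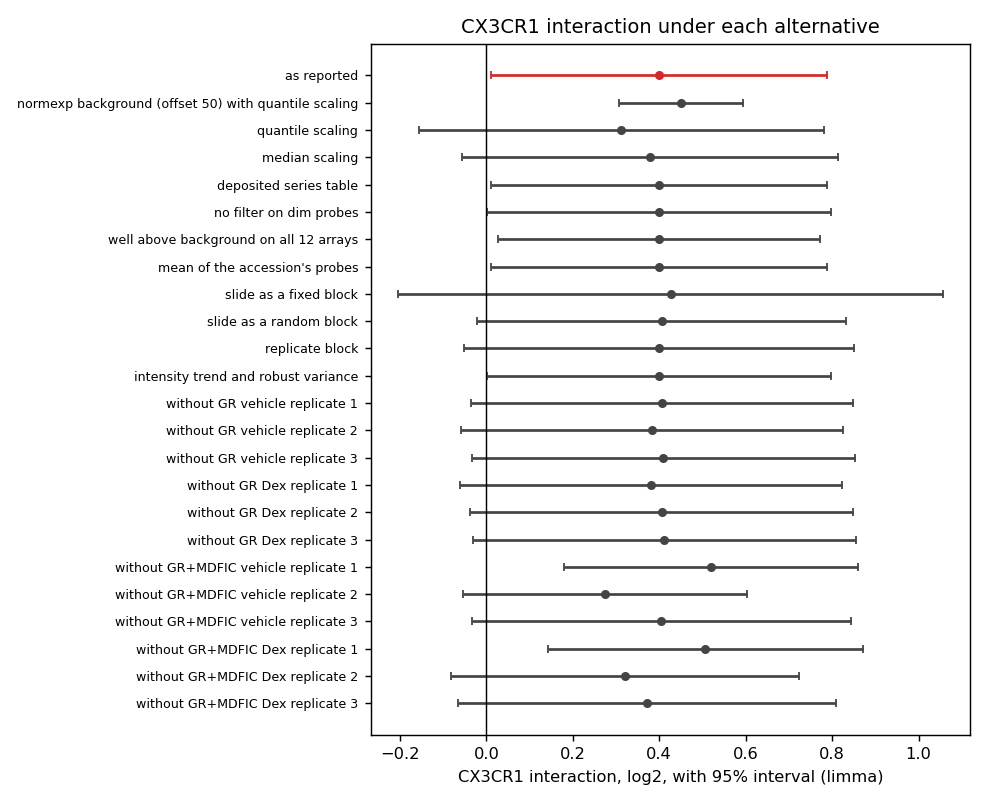
The CX3CR1 interaction (horizontal axis, log2, with 95% limma intervals) as reported, at the top in red, and under each alternative processing or with 1 array left out. All 23 alternatives gave a value above 0, from 0.27 to 0.52, and the interval included 0 in 15 of them.

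CX3CL1, read by its brightest probe, was lower with Dex and showed no detectable change with MDFIC. It read 0.35, 0.40 and 0.34 on the GR+MDFIC Dex arrays and 0.79, 0.96 and 0.72 on the GR+MDFIC vehicle arrays. It read 0.54, 0.53 and 0.40 on the GR Dex arrays and 0.996, 0.847 and 0.835 on the GR vehicle arrays. Every Dex array lay below every vehicle array, in both kinds of cell. The same held for 16.2% of tested accessions in GR+MDFIC cells and for 11.8% in GR cells. In order of level, GR+MDFIC Dex was lowest, followed by GR Dex, GR+MDFIC vehicle and GR vehicle. The last 2 overlapped. The Dex groups lay next to each other, with the highest GR+MDFIC Dex array at 0.396 and the lowest GR Dex array at 0.399.

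With Dex, CX3CL1 fell 1.38-fold in GR+MDFIC cells, a log2 difference of -0.46 ± 0.07 (SE, limma, Benjamini-Hochberg adjusted p = 0.00272). In GR cells it fell 1.32-fold, at -0.40 ± 0.07 (SE, limma, Benjamini-Hochberg adjusted p = 0.00814). In GR+MDFIC cells 13.5% of tested accessions passed in either direction, with 6.94% lower, and in GR cells 7.17%, with 2.77% lower. Both calls were lost with slide as a fixed block, where the falls were -0.36 and -0.35 (limma, Benjamini-Hochberg adjusted p = 0.105 and 0.115, over all alternatives 0.000639 to 0.105 and 0.00242 to 0.653). With slide as a random block both passed, at -0.45 and -0.40 (limma, Benjamini-Hochberg adjusted p = 0.00479 and 0.0121). Within slide 3 the GR+MDFIC Dex arrays lay between -0.39 and -0.33 from the vehicle array, and within slide 1 the GR Dex array lay at -0.35 from the vehicle mean.

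With MDFIC, CX3CL1 differed by -0.13 in Dex (95% interval -0.29 to 0.03, limma, Benjamini-Hochberg adjusted p = 0.299). In vehicle it differed by -0.07 (95% interval -0.23 to 0.09, limma, Benjamini-Hochberg adjusted p = 0.666). Among all tested accessions, 5.54% passed with MDFIC in Dex and 0.884% in vehicle. With the mean of the 3 probes in place of the brightest, the difference in Dex was larger, at -0.52 (95% interval -0.85 to -0.19, limma, Benjamini-Hochberg adjusted p = 0.067), and did not pass. Of the 3 probes, the second dim probe differed most, at -1.11, and its levels followed slide 3, as described below. MDFIC and slide cannot be told apart for that probe. By the brightest probe, both signs turned with slide as a fixed block, to 0.046 in Dex and 0.061 in vehicle. They held with slide as a random block, at -0.11 and -0.06. The sign in vehicle also turned with normexp and quantile scaling, to 0.016.

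The Dex effects on CX3CL1 in the 2 kinds of cell were not detectably different by the brightest probe. The interaction was -0.06 (95% interval -0.29 to 0.17, limma, Benjamini-Hochberg adjusted p = 0.848), and -0.015 within slides. With the mean of the 3 probes it was -0.43 (95% interval -0.90 to 0.04, limma, Benjamini-Hochberg adjusted p = 0.533). The second dim probe, whose levels followed slide 3, had the largest interaction of the 3, at -1.03. As a share of the GR vehicle level, CX3CL1 was at 69.1% in GR+MDFIC Dex, against 72.2% if the single falls multiply.

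**Figure D4:**
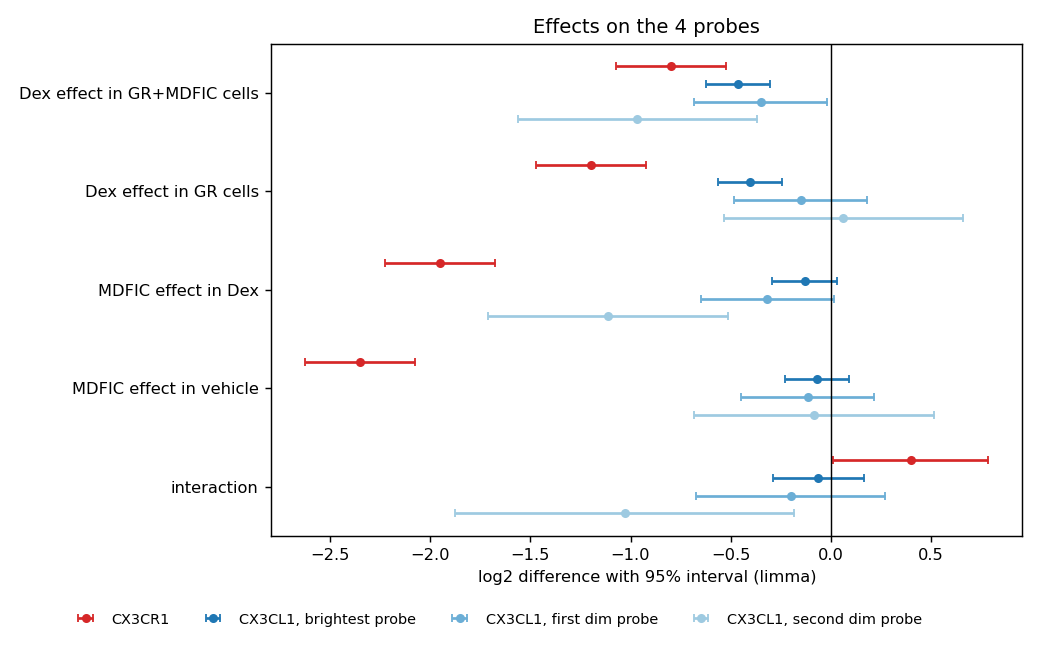
Log2 differences (horizontal axis) with 95% limma intervals for the 4 probes in each comparison (vertical axis), with CX3CR1 in red and the CX3CL1 probes in blues. CX3CR1 lies below 0 in all 4 simple comparisons, while the brightest CX3CL1 probe lies below 0 beyond its interval only with Dex.

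The dimmer CX3CL1 probes showed no detectable fall in GR cells. With Dex in GR cells the first dim probe differed by -0.15 ± 0.15 and the second by 0.063 ± 0.27 (SE, limma over all probes, Benjamini-Hochberg adjusted p = 0.682 and 0.951). Their 95% intervals, -0.48 to 0.18 and -0.54 to 0.66, both held the -0.40 of the brightest probe. A fall of that size can thus not be told from none by these probes. In GR+MDFIC cells the dim probes differed by -0.35 ± 0.15 and -0.97 ± 0.27 (SE, limma, Benjamini-Hochberg adjusted p = 0.144 and 0.0431). The mean of the 3 probes fell by 0.59 with Dex in GR+MDFIC cells (limma, Benjamini-Hochberg adjusted p = 0.0291) and was at -0.16 in GR cells, where it did not pass (limma, Benjamini-Hochberg adjusted p = 0.653). This mean includes the -0.97 of the second dim probe in GR+MDFIC cells.

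The second dim probe followed slide 3. It read -4.44, -4.46 and -4.09 on the GR+MDFIC Dex arrays, all on slide 3, and -3.20, -2.79 and -4.09 on GR+MDFIC vehicle replicates 1, 2 and 3, of which the last was on slide 3. It read -3.07, -3.26 and -3.31 on the GR Dex arrays and -3.28, -3.28 and -3.27 on the GR vehicle arrays. The 4 arrays of slide 3 were thus the 4 lowest, with vehicle and Dex alike. In GR+MDFIC vehicle it differed by -1.09 between slide 3 and slide 2, where the first dim probe differed by -0.38 and the brightest probe by -0.15. Within slide 3 its Dex difference was -0.24. Its limma call with MDFIC in Dex, -1.11 ± 0.27 (SE, Benjamini-Hochberg adjusted p = 0.047), set slide 3 against slides 1 and 2, so MDFIC and slide cannot be told apart there.

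The first dim probe read -3.38, -3.45 and -3.23 on the GR+MDFIC Dex arrays and -2.98, -2.77 and -3.25 on the GR+MDFIC vehicle arrays. It read -2.79, -2.98 and -3.34 on the GR Dex arrays and -2.93, -2.84 and -2.90 on the GR vehicle arrays. Its groups overlapped in every comparison. Neither dim probe passed the interaction in limma, at -0.20 ± 0.21 and -1.03 ± 0.38 (SE, Benjamini-Hochberg adjusted p = 0.759 and 0.518). Within slides these were -0.19 and -0.45.

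**Figure D5:**
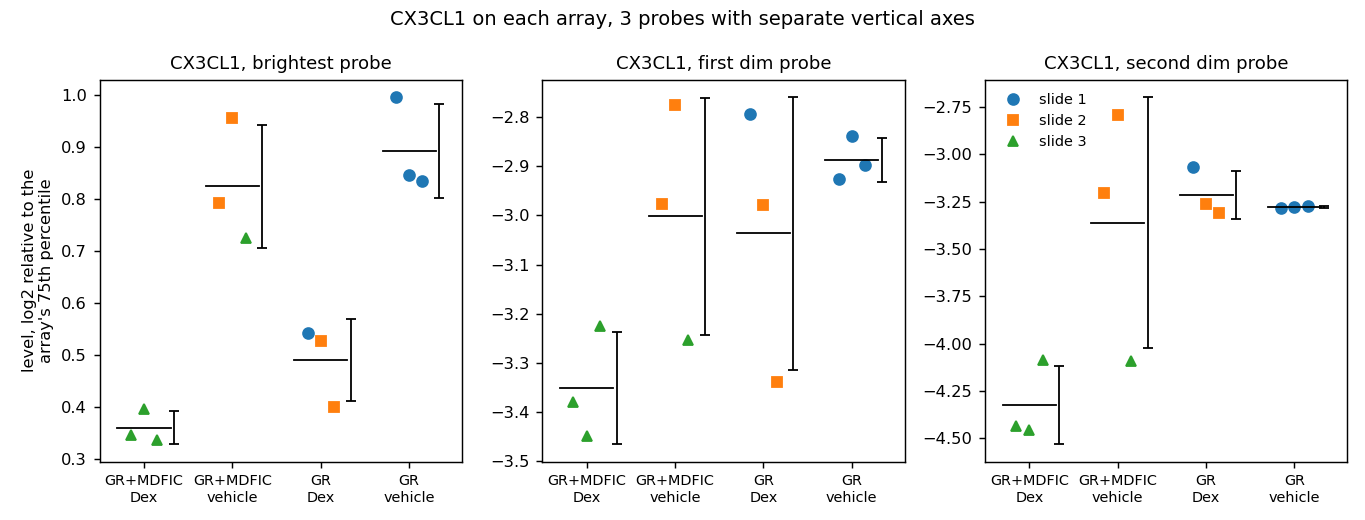
CX3CL1 level on each array by its 3 probes (vertical axes, log2 relative to the 75th percentile of the array, scaled separately) in the 4 groups (horizontal axis). Points are arrays, with shape and colour for the slide, lines are means and bars the SD (n = 3). The brightest probe separates Dex from vehicle, and the second dim probe separates the 4 arrays of slide 3, at -4.46 to -4.09, from the rest.

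The patterns most like each member were sought among accessions starting with NM that were measured on all 12 arrays and whose group means spanned at least 1 on the log2 scale. The likeness is Pearson's r across the 12 arrays, which fall into groups and slides, and is a description. For CX3CR1, 574 accessions qualified and the closest 5 had r between 0.82 and 0.89. The closest, NM_152862, had r = 0.887 (Spearman's rho 0.706) and was at 5.19 ± 0.06 in GR+MDFIC Dex and 5.07 ± 0.04 in GR+MDFIC vehicle, against 6.09 ± 0.09 in GR Dex and 6.17 ± 0.02 in GR vehicle (SD, n = 3). It was lower with MDFIC but did not share the Dex fall in GR+MDFIC cells, where it was slightly higher with Dex. In GR cells it was only slightly lower with Dex. Which accession came closest depended on the measure: of these 5, the highest Spearman's rho, 0.979, belonged to another accession, with r = 0.854. That accession was at -5.57 in GR+MDFIC Dex and -3.38 in GR+MDFIC vehicle, against -2.81 in GR Dex and -2.56 in GR vehicle, the same order of groups as CX3CR1. After slide means were subtracted, the r of these 5 lay between 0.21 and 0.63.

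For CX3CL1, 575 accessions qualified and the closest 5 had r between 0.93 and 0.95. The closest, NM_003897, had r = 0.954 (Spearman's rho 0.909) and was at 2.32 ± 0.02 in GR+MDFIC Dex and 3.51 ± 0.11 in GR+MDFIC vehicle, against 2.44 ± 0.05 in GR Dex and 3.44 ± 0.07 in GR vehicle (SD, n = 3). It was lower with Dex in both kinds of cell. After slide means were subtracted, r lay between 0.89 and 0.98 for these 5. Neither accession is given a gene name here.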

How the data were processed

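Total RNA (500 ng per sample) was labelled with Cy3 and hybridised to one-colour arrays, per the labels. The authors deposited intensities on a linear scale, with no normalization between arrays. Agilent Feature Extraction had background-subtracted and detrended them. Its version was 12 per the submitters' processing notes. Per the file headers it was 12.0.0.7 on slides 1 and 2 and 12.0.3.1 on slide 3. Other deposited values, flags of 0 or 1, mark spots well above background, saturated or outlying, per the file headers. The values deposited for the whole series equalled these intensities (largest difference 0).

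Log2 processed signals were centred on each array's 75th percentile of non-control spots. Outlier spots were set to missing and repeated spots averaged. Probes well above background on all 3 arrays of a group, with at least 2 unflagged arrays per group, were kept (30179). The brightest probe stood for each of 23757 accessions. Other probes of an accession were tested in a fit over all probes kept.

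A group-means model was fitted to all 12 arrays in limma 3.58.1 (R 4.3.3, with the data.table package, version 1.17.8), which was tested on simulated data. Tests were two-sided with Benjamini-Hochberg adjustment, and an adjusted p under 0.05 counted as passing. Figures used matplotlib 3.10.9 (Python 3.11.15). Members, lists and tests were chosen with earlier results of these data known. Named accessions were the members and, of the 5 with the highest r with each member, the closest, since the files pair no gene names. The planned lists of partner genes, receptors, markers and transfected genes need gene names and were not used here, nor were probe sequences. Alternatives covered background correction, scaling, filters, probe averaging, slide and replicate blocks, variance models and single arrays left out. Leaving out slide 3 was added after the data were seen.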

Additional observations from a re-analysis of the deposited data

How the results depend on the processing

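CX3CR1 kept the direction of its falls and of its interaction in all alternatives run. Normexp, whose offset of 50 is large beside the dim signals, combined with quantile scaling gave smaller falls: -0.75 and -0.30 with Dex in GR and GR+MDFIC cells, and -1.32 and -0.87 with MDFIC in vehicle and Dex. It also gave an interaction of 0.45 that passed (limma, Benjamini-Hochberg adjusted p = 0.0445, over all alternatives 0.0445 to 0.9997) and a linear deviation of 33.1 percentage points. With 1 array left out, the falls ranged from -1.21 to -1.18 and -0.92 to -0.68 with Dex, and from -2.47 to -2.22 and -2.03 to -1.84 with MDFIC, in the same order. The interaction ranged from 0.27 to 0.52, the linear deviation from 46.3 to 49.6 and the within-slide interaction from 0.35 to 0.53, which cannot be formed without GR Dex replicate 1 or GR+MDFIC vehicle replicate 3.

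For CX3CL1, the Dex fall did not pass in GR cells with the mean of the probes (-0.16) or a fixed slide block (-0.35), nor in GR+MDFIC cells with that block (-0.36). The difference with MDFIC was 0.016 in vehicle with normexp and quantile scaling, and 0.061 in vehicle and 0.046 in Dex with the block. With the mean of the probes it was -0.52 in Dex, and the interaction was -0.43. That mean includes the second dim probe, whose levels followed slide 3, at -1.11 and -1.03. With 1 array left out, the Dex falls ranged from -0.43 to -0.35 in GR and -0.51 to -0.40 in GR+MDFIC cells, the MDFIC differences from -0.13 to -0.016 in vehicle and -0.18 to -0.10 in Dex, and the interaction from -0.11 to 0.0038, the last without GR+MDFIC vehicle replicate 2. Slides 1 and 3 alone inform the Dex effects in the fixed block, with 1 array in an arm of each. The causes of the other changes were not tested.

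Replicate numbers gave no clear pairing of the samples. Of 18 same-numbered pairs of arrays, 3 had deviations correlated over 0.1, and the range was -0.24 to 0.14. However, 7 of 12 arrays correlated best with an array of their own number, and the count due by chance was not worked out. The replicate block changed no call of either member, with an interaction of 0.40 for CX3CR1 (95% interval -0.05 to 0.85).

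Counts of accessions that passed depended more on the processing. With Dex in GR cells 1704 passed, 845 with a fixed slide block and 1085 in a fit of the compared groups. With Dex in GR+MDFIC cells 3217 passed, 809 with the block and 1243 in the compared groups. With MDFIC in vehicle 210 passed, 115 with no filter, 71 with the block, 106 with a random slide block, 115 with the replicate block, 33 in the compared groups and 328 with an intensity trend and robust variance. With MDFIC in Dex 1317 passed, 2329 with normexp, 862 with no filter, 48 with the block, 114 with the random block, 2259 in the compared groups and 2040 with the trend. In the interaction 14 passed, 9 with normexp, 3 with probes measured on all arrays, 6 with the random block and 5 with the replicate block or the trend. With 1 array left out these counts ranged from 1081 to 1775, 1816 to 6336, 89 to 580, 96 to 3112 and 2 to 1815, in the same order. The highest of the last 4 came when replicate 3 of GR+MDFIC vehicle was left out. Without slide 3, the Dex effects in GR cells were -1.20 for CX3CR1 and -0.40 for CX3CL1.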
